A study of Mus musculus with 3 samples.

Results

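Ribosome footprints on 7 genes of cellular iron handling were examined in mouse primary cortical neurons, out of 20823 for which the tables hold a coding sequence (CDS) with UTRs on both sides. The genes were chosen by name: Fth1, Ftl1 and Slc40a1, whose mRNAs carry an iron-responsive element in the 5′ UTR; Tfrc and Slc11a2, which carry it in the 3′ UTR; and Ireb2 and Aco1, which encode the proteins that bind it. Symbols were reached through the GENCODE transcript identifiers, and the longest transcript of each gene was counted.

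Ribosome profiling sequences mRNA fragments that ribosomes shield from nuclease. Cortical neurons from CD-1 mouse embryos were cultured in Neurobasal with B27 and Glutamax, and 1 library was made for each of 3 treatments, which served the study's search for translated open reading frames. The WT dishes were left untreated. The sample descriptions instead name input or pulldown fractions of dep neurons, which disagrees with the titles and recorded treatments used here. Cycloheximide, which freezes elongating ribosomes, was given for 2 min in Chx, while Harr dishes had 2 min of harringtonine before a brief exposure to cycloheximide. Harringtonine stops new ribosomes at the start codon, and ribosomes further along the CDS continue to its end. All 3 libraries came from 3 pooled dishes, and the rinse and lysis buffers held cycloheximide at 100 μg per ml in each, so the WT library is not free of the drug after harvest. Micrococcal nuclease was used to release monosomes, which were isolated on gradients before rRNA depletion. There was 1 library per treatment, so no difference below has a replicate check, and intervals are 95% and cover counting error only. Footprint number depends on both mRNA amount and ribosomes per mRNA, and in such bulk libraries fewer expressing cells and less RNA per cell cannot be told apart.

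Neurons import iron with transferrin through the transferrin receptor, move it out of endosomes with a divalent metal transporter, store it in ferritin and export it by ferroportin. The iron-responsive element is a short RNA hairpin with a CAGTGN loop. When iron is scarce, iron regulatory proteins bind it: in a 5′ UTR the bound protein blocks initiation, and in a 3′ UTR it protects the mRNA from decay.

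The elements are shown because the counts below are set against their position. The GENCODE M21 transcripts (mm10, the build of the tables) were searched on the mRNA strand for CNNNNNCAGTGN with 5 base pairs closing the loop (G:T pairs allowed; in 1 form with 1 bulged base). Capitals mark the loop. Fth1 holds its element in the 5′ UTR at chr19:9982732-9982761 (+), Ftl1 at chr7:45459778-45459807 (−) and Slc40a1 at chr1:45925464-45925493 (−). Tfrc holds 4 in its 3′ UTR, at chr16:32631219-32631248, chr16:32631598-32631627, chr16:32631663-32631692 and chr16:32631710-32631739 (+). Slc11a2 holds 1, of the bulged form, in its 3′ UTR at chr15:100395152-100395181 (−).
Fth1: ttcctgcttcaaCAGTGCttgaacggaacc
Ftl1: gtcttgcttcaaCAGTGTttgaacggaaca
Slc40a1: caacttcagctaCAGTGTtagctaagtttg
Tfrc, element 1: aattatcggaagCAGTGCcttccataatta
Tfrc, element 2: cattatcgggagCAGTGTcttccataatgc
Tfrc, element 3: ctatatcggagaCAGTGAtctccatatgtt
Tfrc, element 4: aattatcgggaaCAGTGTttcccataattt
Slc11a2: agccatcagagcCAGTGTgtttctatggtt

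The hairpin without a bulge was present in 21 of 20690 5′ UTRs (0.101%) and in 125 3′ UTRs (0.604%); with the bulged form the shares were 0.246% and 1.63%. The UTRs of Ireb2 and Aco1 held no match, which says only that these letters were not in those windows. The element begins 138 nucleotides before the start codon in Fth1, 176 in Ftl1 and 230 in Slc40a1. The distances differ, but in each of the 3 mRNAs a stretch longer than 100 nucleotides separates the element from the CDS.

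Between 9754412 (Harr) and 35722483 (Chx) reads aligned per library, with 30219197 for WT, and 60.2% to 63.2% of them lay on the longest transcripts. All 8 neuronal markers had reads in every library, at 5377 to 6225 RPM (reads per 1e+06 aligned reads) in sum. The 4 astrocyte markers also had reads, at 146 to 224 RPM, while the 4 microglial markers together reached 2.46 to 3.11 RPM and the 4 oligodendrocyte markers 6.42 to 9.53 RPM, with Mog and Mobp at 0 and the remaining 2 read in every library. The part that these other cell types played in the levels below was not tested. Reads were assigned to the position of their 5′ end, which puts the footprint of a ribosome sitting at the start codon into the last nucleotides of the 5′ UTR.

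Coding-sequence levels, per length, spanned a wide range. In WT the order was Tfrc at 124.6 RPKM (RPM per kilobase; interval 122 to 127), Fth1 at 122.7 (117 to 128), Ftl1 at 37.4, Ireb2 at 21.6, Aco1 at 16.4, Slc11a2 at 13.8 and Slc40a1 at 1.31 (1.00 to 1.63). Tfrc and Fth1 did not differ beyond their intervals in WT, whereas in Chx Tfrc, at 135 RPKM, lay above Fth1, at 109. Tfrc ranked 865 and Slc40a1 11013 among the 20823 genes in WT. Fth1 ranked 882, Ftl1 2553, Ireb2 3899, Aco1 4719 and Slc11a2 5293. By these counts the receptor and the ferritin heavy chain stood well above the others. The ferritin levels and ranks are uncertain. Of short sequence words in the CDS, 95.7% in Ftl1 and 29% in Fth1 also occurred in transcripts of other genes, against 0% in Tfrc. How reads matching several genes were counted is not given in the sources used here. Its part in the ferritin levels and ranks was not tested.

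In every library the 5′ UTR took a smaller share of footprints in Tfrc than in Ftl1 or Slc40a1. The Fth1 share was above that of Tfrc in Chx and Harr and below it in WT, at 1.68% against 3.93%. Shares depend on the lengths of the regions, and per length the order differed. The 5′ UTR density relative to the CDS was 0.672 in WT, 0.945 in Chx and 5.74 in Harr for Tfrc. In the same order it was lower in Ftl1 (0.196, 0.279 and 3.55) and in Fth1 (0.0119, 0.0519 and 0.517). For Slc40a1 it was 1.18, 0.719 and 8.84, with intervals that overlapped those of Tfrc. In each of the 7 genes the 5′ UTR share was highest in Harr, and the Harr intervals did not overlap those of Chx or WT. Beside this, the median 5′ UTR share over all genes with at least 10 reads in both regions was 7.28% in WT, 10.3% in Chx and 37.5% in Harr. The 5′ UTR:CDS ratio defined below was called higher in Harr than in Chx for 89.4% of 10723 genes. Against WT it was called higher for 94.3% of 10314 genes. The shift was therefore shared by most genes, and its presence in all 7 says little about iron genes.

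**Figure D1:**
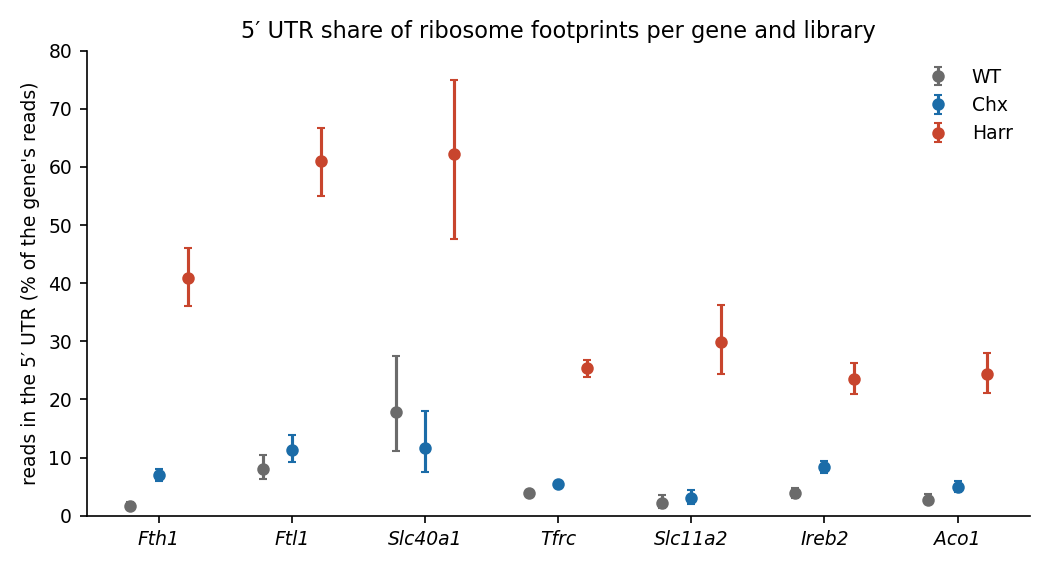
Share of each gene's reads that fell in its 5′ UTR (y axis, %) for the 7 genes (x axis) in WT, Chx and Harr; points are single libraries and bars 95% Wilson intervals. The Harr points run from 23.5% in Ireb2 to 62.2% in Slc40a1, all above the WT and Chx points, which run from 1.68% to 17.9%.

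Fth1 encodes the ferritin heavy chain, the ferroxidase subunit of the iron store. Its longest transcript, ENSMUST00000235196.1 (chr19:9980598-9985092, +), had 35 reads in the 5′ UTR and 2036 in the CDS in WT. Chx had 161 and 2141, and Harr had 149 and 199. The 5′ UTR share was therefore 1.68% in WT (interval 1.21 to 2.32), 6.98% in Chx (6.01 to 8.10) and 40.9% in Harr (36.0 to 46.1). Per length, the 5′ UTR held 0.0119 of the CDS density in WT, lower than the ratio of all but 0.339% of genes with at least 10 reads in both regions. The upstream exon of 293 nucleotides in this transcript had 0 reads in all libraries. The next 278 nucleotides had 1 read in Chx and 0 in WT and Harr, so the low ratio and its rank depend on the transcript taken. With a transcript whose 5′ UTR lies in 1 exon the ratio was 0.0421 in WT, 0.183 in Chx and 1.84 in Harr.

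In the Fth1 5′ UTR the read density was highest next to the element. Overlapping transcripts cut the 5′ UTR into stretches whose counts could be separated. A stretch of 24 nucleotides, from 147 to 124 before the start codon, which ends inside the element, had 14 reads in WT, 71 in Chx and 57 in Harr, or 40.0%, 44.1% and 38.3% of all 5′ UTR reads. The 19 nucleotides upstream had 2, 5 and 1 reads, and the 58 before those had 9, 3 and 7, which is 25.7% of the 5′ UTR reads in WT, 1.86% in Chx and 4.70% in Harr. The 123 nucleotides between the stretch of 24 and the start codon had 10, 81 and 84. Per nucleotide the stretch at the element held 0.583 reads in WT, 2.96 in Chx and 2.38 in Harr, against 0.0813, 0.659 and 0.683 downstream of it and 0.155, 0.0517 and 0.121 in the stretch of 58. None of the 25-nucleotide words of the Fth1 5′ UTR occurred in transcripts of another gene, and the 6 ATGs of the longest 5′ UTR lay at least 432 nucleotides before the start codon.

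Ftl1 encodes the ferritin light chain, which supports mineral formation inside the shell. Its longest transcript, ENSMUST00000094434.12 (chr7:45457944-45459884, −), had 56 5′ UTR and 624 CDS reads in WT, 83 and 650 in Chx, and 161 and 99 in Harr. The 5′ UTR share was 8.09% in WT (interval 6.28 to 10.4), 11.3% in Chx (9.23 to 13.8) and 61.0% in Harr (55.0 to 66.7), so WT and Chx overlapped and Harr stood apart. These values are uncertain, because 95.7% of the 25-nucleotide words of the Ftl1 CDS and 67.2% of those of its 5′ UTR also occurred in transcripts of other genes, 34 in all for this mRNA. The Fth1 CDS shares 159 of its 549 words with 4 other genes. The 188 nucleotides that hold the element (208 to 21 before the start codon) carried 54, 81 and 155 reads in WT, Chx and Harr. The last 20 nucleotides, all of whose words are shared, had 0 reads in each library.

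Slc40a1 encodes ferroportin, the cellular iron exporter. Its transcript, ENSMUST00000027137.10 (chr1:45908068-45925582, −), was the most thinly covered of the 7. It had 15 5′ UTR and 68 CDS reads in WT, 17 and 127 in Chx, and 28 and 17 in Harr. The 5′ UTR shares of 17.9% in WT (interval 11.1 to 27.4) and 11.7% in Chx (7.45 to 17.97) overlapped, and the Harr share was 62.2% (47.6 to 74.9). Most of the Harr reads in its 5′ UTR were downstream of the element. The 174 nucleotides that contain it had 5 reads in WT, 11 in Chx and 5 in Harr, while the 64 nucleotides before the start codon had 7, 4 and 13.

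Tfrc encodes transferrin receptor 1, the main entry for transferrin-bound iron. Its transcript, ENSMUST00000023486.14 (chr16:32608920-32632794, +), was the most deeply covered, with 354 5′ UTR and 8627 CDS reads in WT, 640 and 11083 in Chx, and 819 and 2337 in Harr. The 5′ UTR share was 3.93% in WT (interval 3.55 to 4.36), 5.46% in Chx (5.06 to 5.88) and 25.3% in Harr (23.9 to 26.9), with no overlap between libraries. Most of these reads lay just before the start codon. The last 23 nucleotides of the 5′ UTR held 338 of them in WT (95.5%), 587 in Chx (91.7%) and 717 in Harr (87.5%), and the next 54 nucleotides upstream held 12, 49 and 98. The Tfrc 5′ UTR held no ATG.

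Slc11a2 encodes the divalent metal transporter DMT1, which moves iron out of endosomes. The longest transcript, ENSMUST00000138843.7 (chr15:100392563-100423002, −), is the form with the element in its 3′ UTR. It had 16 5′ UTR and 701 CDS reads in WT, 27 and 865 in Chx, and 68 and 155 in Harr. Shares were 2.22% in WT (interval 1.37 to 3.57), 3.02% in Chx (2.09 to 4.36) and 29.96% in Harr (24.4 to 36.2). The last 9 nucleotides before the start codon held 10, 11 and 44 of the 5′ UTR reads, that is 62.5% in WT, 40.7% in Chx and 64.7% in Harr. These nucleotides belong to an exon segment that is coding in another transcript, and that segment held 14 of the 16 5′ UTR reads in WT, 19 of 27 in Chx and 59 of 68 in Harr.

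The 2 ends of the Slc11a2 CDS let footprints be assigned to forms with and without the element. The 57 coding nucleotides found only in the form with the element (chr15:100395213-100395269) had 25 reads in WT, 44 in Chx and 27 in Harr. The 78 found only in the other form (ENSMUST00000023774.11, chr15:100389084-100389161) had 14, 14 and 7. Per length, the end with the element was the denser by 2.44-fold in WT (interval 1.27 to 4.70), 4.30-fold in Chx (2.36 to 7.85) and 5.28-fold in Harr (2.30 to 12.1). The element form carried more footprints at its end in each library, and the intervals of the 3 ratios overlapped.

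Ireb2 and Aco1 encode iron regulatory proteins 2 and 1. Aco1 doubles as the cytosolic aconitase when it holds an iron-sulphur cluster, whereas Ireb2 is controlled by degradation when iron is plentiful. Ireb2 (ENSMUST00000034843.8, chr9:54863789-54912530, +) had 77 5′ UTR and 1891 CDS reads in WT, 234 and 2551 in Chx, and 218 and 637 in Harr. Its 5′ UTR of 89 nucleotides took 3.86% of reads in WT, 8.38% in Chx and 23.5% in Harr. Relative to the CDS the density was 1.32 times the CDS density in WT (interval 1.05 to 1.66), 2.98 in Chx (2.61 to 3.41) and 11.1 in Harr (9.54 to 13.0). These were the highest values of the 7 genes, but beyond the counting intervals in Chx alone, since Slc40a1 overlapped in WT, and Slc40a1 and Slc11a2 in Harr. An ATG lies 13 nucleotides before the Ireb2 start codon, in another frame, and its reading frame of 14 codons ends after the start codon. Upstream ATGs were present in 5 of the 7 genes and in 55.4% of all 5′ UTRs.

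Aco1 (ENSMUST00000102973.3, chr4:40143081-40198338, +) had 37 5′ UTR and 1322 CDS reads in WT, 97 and 1864 in Chx, and 144 and 438 in Harr. The 5′ UTR share was 2.72% in WT (interval 1.98 to 3.72), 4.94% in Chx (4.07 to 5.99) and 24.4% in Harr (21.1 to 28.0). Of these reads, the last 30 of 491 nucleotides held 23 in WT (62.2%), 44 in Chx (45.4%) and 97 in Harr (67.4%). The 461 nucleotides upstream held 14, 53 and 47. As in Tfrc and Slc11a2, the density of read 5′ ends was highest in the stretch that touches the start codon. In Fth1 it was highest in the stretch that ends inside the element. The stretches differ in length, and the last 123 nucleotides of the Fth1 5′ UTR could not be divided, so a peak at its start codon would not be visible as one.

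**Figure D2:**
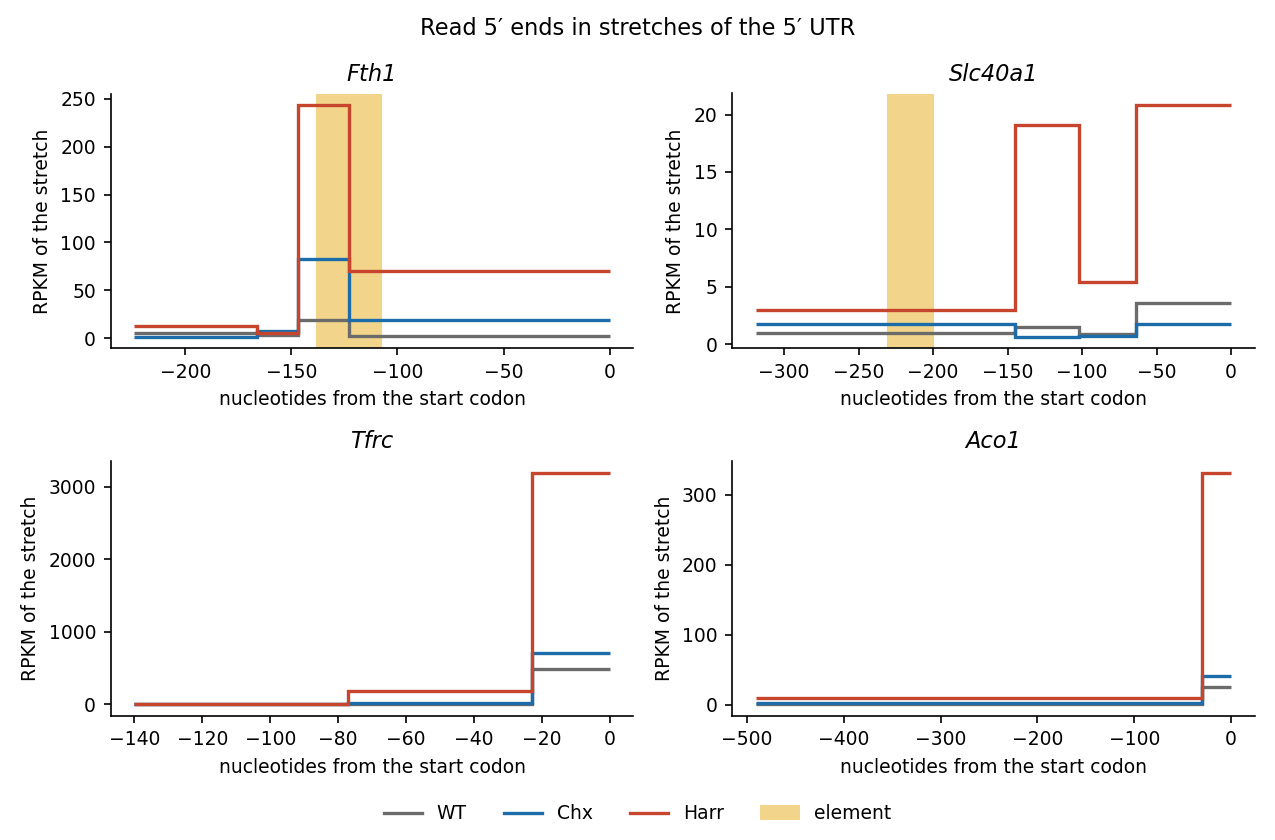
Density of read 5′ ends (y axis, RPKM) in stretches of the 5′ UTR that overlapping transcripts separate, against distance from the start codon (x axis, nucleotides), for Fth1 (single-exon part), Slc40a1, Tfrc and Aco1 in WT, Chx and Harr, each 1 library; the band marks the element. In Harr the Fth1 stretch that ends in the element stands at 243 RPKM against 70.01 downstream, whereas Tfrc (3196) and Aco1 (331) peak in the stretch before the start codon.

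The change of the 5′ UTR:CDS ratio between 2 libraries was expressed as a log2 odds ratio with 0.5 added to each count, and called when it was at least 2-fold with a counting interval off 0. Harr was higher than Chx in 7 of 7 genes. The background is high, as 89.4% of 10723 genes were called higher and 0.103% lower, and the count says little about iron genes in particular. The values ran from 1.90 (interval 1.61 to 2.19) in Ireb2 to 3.79 (3.11 to 4.48) in Slc11a2, with a median of 3.31 against 2.46 over all genes. With the Slc11a2 transcript that has the most reads its value was 3.17, and Ftl1, at 3.66, was then the highest. Harr was also higher than WT in 7 of 7 genes, where 94.3% of 10314 genes were called higher and 0.136% lower, with values from 2.85 in Slc40a1 to 5.43 (4.86 to 5.99) in Fth1. The comparisons share libraries and are not independent of each other.

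Since this ratio falls with CDS length over all genes (from a median of 3.09 in the shortest class, under 600 nucleotides, to 1.58 in the longest, Harr against Chx), each gene was also set against genes of its own length class. Slc11a2 lay 1.33 above its class median in Harr against Chx, above 93.7% of that class, and Slc40a1 1.10 above it. Aco1 and Tfrc were 0.70 and 0.64 above, Ftl1 0.57 and Fth1 0.22 above, and Ireb2 0.06 below. Against WT, Fth1 stood highest, at 1.53 above its class median and above 90.3% of genes in the class.

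Chx against WT separated Fth1 from the other 6 genes. Its log2 odds ratio of 2.11 (interval 1.58 to 2.64) lay above 93.8% of tested genes, where the median was 0.67. Ireb2, at 1.17 (0.79 to 1.55), was the other gene called higher. That is 2 of 7 genes, where 30.3% of 10430 genes were called higher and 1.09% lower. The remaining 5 were not called: Aco1 at 0.88 (0.33 to 1.44), Ftl1 at 0.50 (−0.01 to 1.02), Tfrc at 0.49 (0.30 to 0.68), Slc11a2 at 0.43 (−0.46 to 1.33) and Slc40a1 at −0.72 (−1.79 to 0.35). With the Slc11a2 transcript that has the most reads its value was 1.45, it was called higher, and the count became 3 of 7. The direction in Slc40a1 was opposite to that of the other 6 genes, but its interval spans 0.

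**Figure D3:**
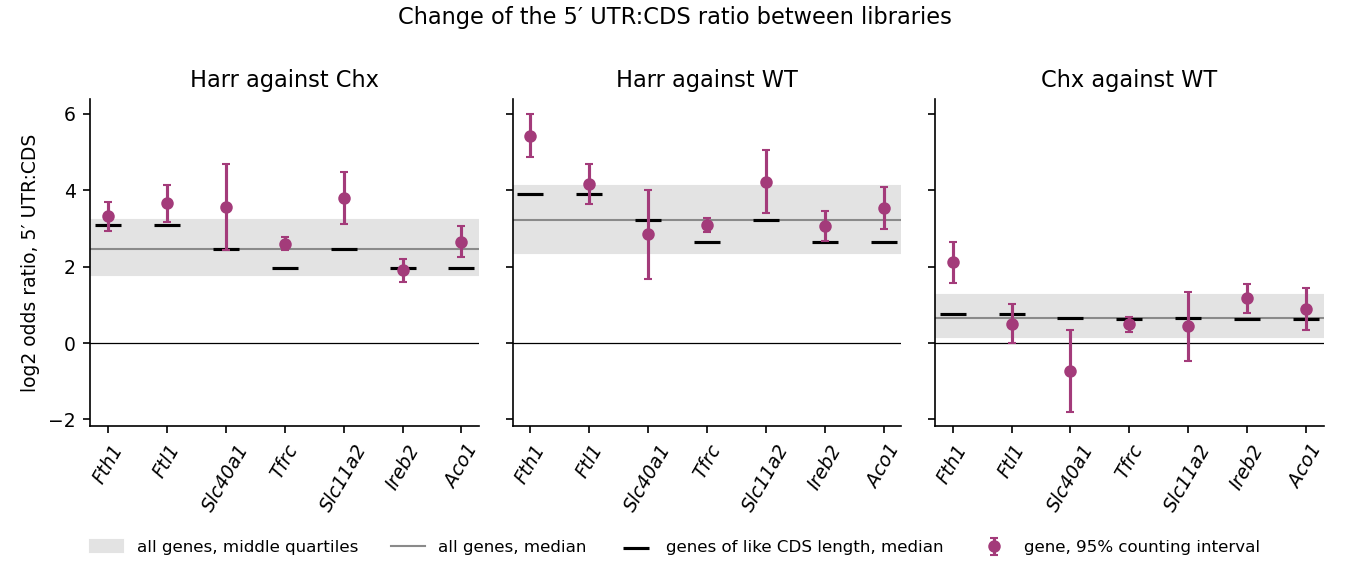
Change in the 5′ UTR:CDS ratio (y axis, log2 odds ratio) for the 7 genes (x axis) in 3 comparisons of libraries; points are gene values with 95% counting intervals, the band and grey line the middle quartiles and median of all genes tested, and black dashes the median of genes of like CDS length. Fth1 stands above the band in each panel (3.31, 5.43 and 2.11), as do Ftl1 and Slc11a2 in both Harr panels and Slc40a1 in Harr against Chx, while Tfrc lies within it in each panel.

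The comparison of the 3 genes with a 5′ UTR element against Tfrc gave no stable order. In Harr against Chx, Fth1 exceeded Tfrc by 0.71 (interval 0.30 to 1.13), Ftl1 by 1.06 (0.55 to 1.57) and Slc40a1 by 0.97 (−0.17 to 2.10), so the median gene was 0.97 above Tfrc with an interval that spans 0. In Harr against WT the median gene was 1.07 above Tfrc (0.51 to 1.64), though Slc40a1 was 0.25 below it. In Chx against WT the median difference was 0.01 (−0.53 to 0.56), with Fth1 1.62 above Tfrc (1.06 to 2.19) and Slc40a1 1.21 below it (interval of the difference −2.30 to −0.12). Once each gene was set against its length class, the median difference was −0.07 in Harr against Chx, −0.18 in Harr against WT and −0.11 in Chx against WT. For the ferritins against Tfrc, position of the element and CDS length cannot be told apart, since Fth1 and Ftl1 have CDSs of 549 and 552 nucleotides and Tfrc one of 2292. Slc40a1 (1713 nucleotides, 5′ UTR element) and Slc11a2 (1686 nucleotides, 3′ UTR element) are of like length. Their values were 3.57 (2.45 to 4.69) and 3.79 (3.11 to 4.48) in Harr against Chx, 2.85 (1.68 to 4.02) and 4.23 (3.41 to 5.04) in Harr against WT, and −0.72 (−1.79 to 0.35) and 0.43 (−0.46 to 1.33) in Chx against WT. The intervals of this pair overlapped in each comparison. That rests on the Slc11a2 transcript used, since with the transcript that has the most reads Slc11a2 was at 3.17, 4.62 and 1.45 in the same order, and the last was called higher.

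Footprints in the 3′ UTR were few. Tfrc, with its 4 elements in a 3′ UTR of 2458 nucleotides, had 17 reads there in WT, 7 in Chx and 78 in Harr. Its 3′ UTR share was 0.189% in WT (interval 0.118 to 0.302), 0.0597% in Chx (0.0289 to 0.123) and 2.41% in Harr (1.94 to 2.9998), and Harr stood apart from both. Ireb2 had 26, 9 and 74 reads in WT, Chx and Harr, Fth1 had 16, 3 and 16, and Aco1 had 3, 1 and 9. Slc11a2 had 4, 1 and 4. Slc40a1 had 1, 1 and 0, under the floor of 3 counts in each library.

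Relative to the CDS, the 3′ UTR of Tfrc was denser in Harr, by a log2 odds ratio of 5.63 against Chx (interval 4.55 to 6.72) and 4.05 against WT (3.30 to 4.80). These lay above 79.9% and 84.4% of the genes tested. At least 10 reads were required in each region, summed over the pair of libraries. In Harr against Chx 4 genes reached this in the 3′ UTR, and none had 10 reads in Chx, so they could pass only by being high in Harr. Their calls, all higher, are given as a description beside the 86.4% of 5218 genes called higher and 1.3% lower. Against WT, 5 could be tested and Tfrc, Ireb2, Fth1 and Aco1 were called higher, where 79.7% of 5799 genes were called higher and 1.52% lower. Aco1, with 3 reads in WT and 9 in Harr, could pass only by being high in Harr. Ftl1 was at 1.18 (−0.41 to 2.76). The 4 genes tested in Chx against WT likewise had fewer than 10 reads in Chx and 12 or more in WT. They were called lower, as were 38.9% of 4593 genes, with 0.74% called higher. Tfrc was at −1.58 (−2.82 to −0.35), Ireb2 at −1.91 (−2.98 to −0.84) and Fth1 at −2.31 (−3.98 to −0.64). Ftl1 had 12 3′ UTR reads in WT and 0 of 733 reads in Chx, which allows a share of up to 0.409%.

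CDS reads, scaled to all CDS reads of a library, differed by less than the 2-fold limit in most genes. Fth1 was the exception in Harr: it was lower than in Chx (log2 ratio −1.003) (interval −1.21 to −0.79) and lower than in WT (−1.21, interval −1.42 to −0.999). That is 1 of 7 genes called lower in each comparison, where 13.7% and 14.3% of 11459 genes were. None of the 7 was called higher, where 4.63% and 5.3% were. The first call sits at the limit and was lost with median-of-ratios scaling (−0.99). Scaled to all aligned reads, Ftl1 was also called lower in Harr than in WT (−1.02). Under that scaling the median over all 11459 genes was −0.51, and the share of genes called lower was not computed, so this call says little about Ftl1. Genes with a CDS under 600 nucleotides had a median of −0.68 in Harr against Chx. Between Chx and WT 0 of 7 genes were called in either direction, where 0.201% were called higher and 0.122% lower; the values ran from −0.22 in Ftl1 to 0.62 (0.19 to 1.04) in Slc40a1. No p-value was computed for these counts, as there is 1 library per treatment.

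Within the CDS the footprints of Harr were unevenly spread. In Tfrc, the ratio of Harr to Chx in RPM was 1.00 in coding segment 1, fell to 0.171 in segment 3 and was 0.276 in segment 7. It was 0.927 in segment 8, centred 976 nucleotides from the start codon, and 1.37 in the last, segment 18. The reads behind the lowest ratio were 67 in Harr and 1435 in Chx, and those behind the last 463 and 1234. Harr was thus depleted over the early part of the Tfrc CDS and not at its end, while segments 8 to 10 were at 0.780 to 0.927.

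Aco1 showed the steepest profile. Segment 1 had 17 reads in Harr and 116 in Chx, a ratio of 0.537. Segments 3 to 7 had 2, 0, 2, 2 and 3 reads in Harr against 89, 17, 107, 125 and 140 in Chx. From segment 10, centred 1268 nucleotides from the start codon, the ratio was 1.06 or more, and it reached 2.46 in segment 20, with 45 Harr and 67 Chx reads. Ireb2 was flatter, with 0.502 in segment 4 and 2.83 in the last segment, and Slc11a2 went from 0.166 in segment 7, with 2 Harr and 44 Chx reads, to 2.16 in the last.

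Reads after the midpoint of the CDS were compared with those before it, each coding segment being placed by its middle; the measure was added after the data were seen. Harr was higher than Chx in 4 of 7 genes, Tfrc, Slc11a2, Ireb2 and Aco1, where 32.2% of 11049 genes were called higher and 9.3% lower. Aco1 stood at 2.33 (interval 1.965 to 2.70), above 93.9% of genes in its length class. Tfrc, at 1.59 (1.46 to 1.73), lay above 71.4% of its class, and Slc11a2, at 1.57 (1.07 to 2.08), above 73.9%. Ireb2, at 1.03 (0.77 to 1.28), was below its class median of 1.21. The short Fth1 and Ftl1 were at −0.44 (−0.92 to 0.03) and −0.16 (−0.77 to 0.45), with a class median of −0.77, and Slc40a1 at 0.87 (−0.57 to 2.31). Against WT the same 4 genes were called, where 32.1% of 10934 genes were called higher and 11.5% lower. Between Chx and WT none of the 7 was called, where 1.15% of 11413 genes were called higher and 2.84% lower, and the values ran from −0.82 in Ftl1 to 0.46 in Ireb2.

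**Figure D4:**
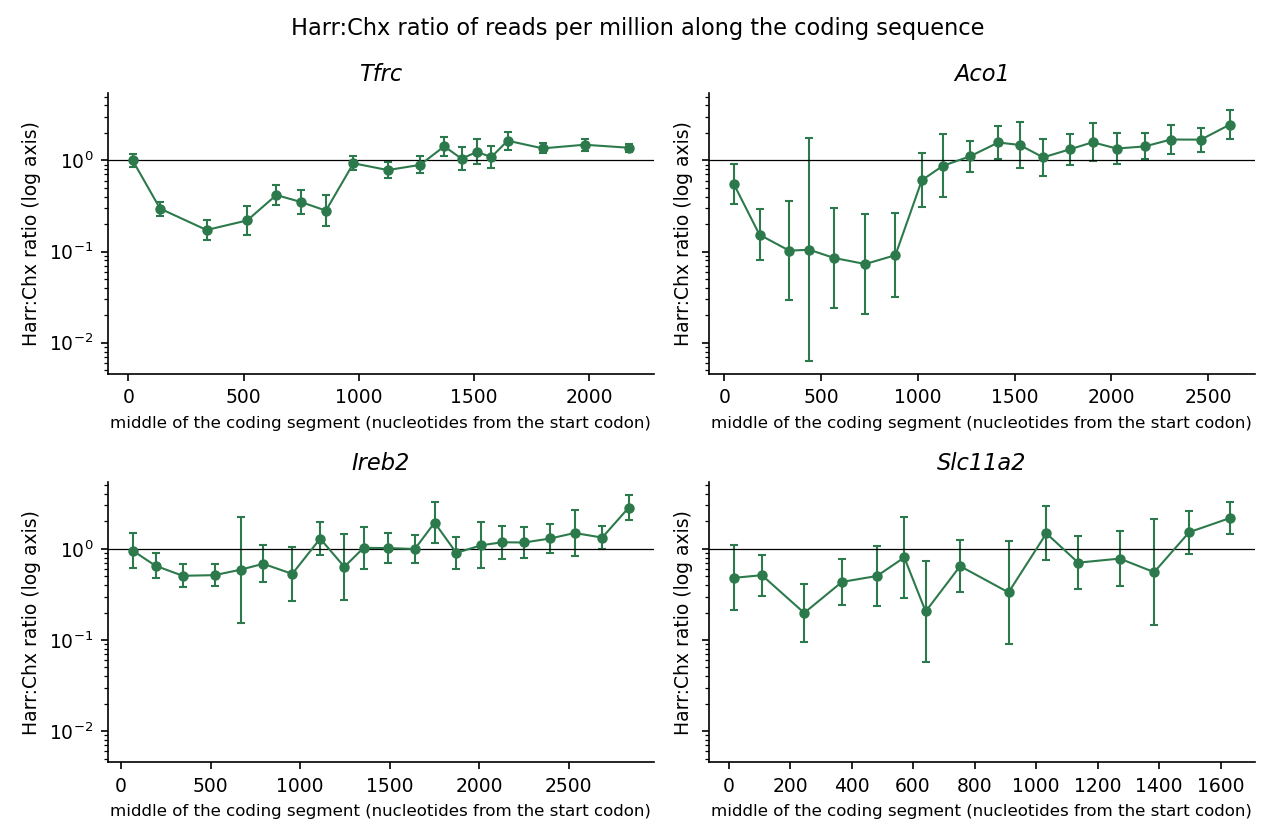
Ratio of Harr to Chx in RPM (y axis, log scale, with 0.5 added to each count) for each coding segment against the distance of its middle from the start codon (x axis, nucleotides) in Tfrc, Aco1, Ireb2 and Slc11a2; bars are 95% counting intervals. Tfrc and Aco1 dip well below 1 early in the CDS and end above 1 (1.37 and 2.46 in the last segments), with Tfrc segments 8 to 10 at 0.780 to 0.927, while Ireb2 changes less.

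Among 5 other mRNAs named for an iron-responsive element, 3 had at least 100 CDS reads. The hairpin was found in the 5′ UTRs of Alas2 and Epas1, and in none of Cdc14a, Cdc42bpa and Pfn2. In Harr against Chx, the log2 odds ratio of the 5′ UTR against the CDS was 3.42 (interval 3.26 to 3.57) in Pfn2, an actin-binding profilin, 2.79 (0.86 to 4.73) in Epas1, a hypoxia-inducible factor, and 1.28 (0.88 to 1.68) in Cdc42bpa, a kinase. Pfn2 and Cdc42bpa were called higher, where 89.4% of all genes were. Epas1 was called too, but with 3 5′ UTR reads in Chx and 8 in Harr it reached the minimum of 10 only through Harr. Alas2, the erythroid enzyme of haem synthesis, had 0 reads in every region and library, and the CDS of Cdc14a had 13 reads in WT, 8 in Chx and 0 in Harr.

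Of 24 other iron genes, 14 could be tested for the 5′ UTR:CDS ratio in Harr against Chx and 14 were called higher, with a median of 3.02, where 89.4% of all genes were called. Of these, Cp, Slc25a28, Nfs1 and Cybrd1 had under 10 5′ UTR reads in Chx and reached the minimum only with those of Harr, where they were high relative to the CDS, so their calls and the median that includes them are a description. The highest were the haem oxygenases Hmox1 at 4.07 (interval 3.56 to 4.57) and Hmox2 at 4.05 (3.70 to 4.40), then Pcbp2, an RNA-binding protein that also delivers iron to ferritin, at 3.93 (3.78 to 4.09). The lowest values, of which the first 2 rest on 5 and 5 and on 6 and 9 5′ UTR reads in Chx and Harr, were those of Slc25a28, a mitochondrial iron carrier, at 2.03 (0.25 to 3.81), Cp, the ferroxidase ceruloplasmin, at 2.06 (0.51 to 3.61) and Fbxl5, the ubiquitin ligase subunit that targets iron regulatory proteins, at 2.12 (1.56 to 2.67). In Chx against WT 5 of 13 tested were called higher, where 30.3% of all genes were. In CDS reads 1 of 15 was higher and 1 lower in Harr against Chx, where 4.63% and 13.7% of all genes were, and none was called in Chx against WT. For the 5′ UTR:CDS ratio in Harr against Chx, the values of the 7 genes lay inside the range of these other iron genes, except that of Ireb2. Its value of 1.90 was below the lowest, with an interval that overlapped those of Slc25a28, Cp and Fbxl5.

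**Figure D5:**
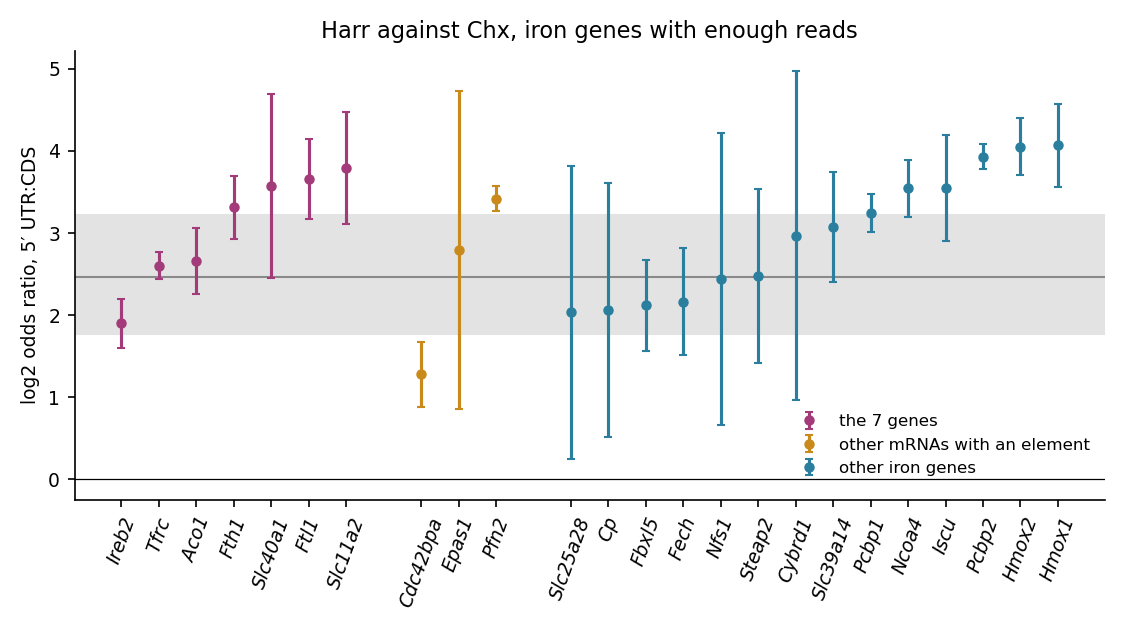
Change in the 5′ UTR:CDS ratio, Harr against Chx (y axis, log2 odds ratio) for the 7 genes, 3 other mRNAs named for an element and 14 other iron genes that had enough reads (x axis, ordered within each group); bars are 95% counting intervals, and the band and line the middle quartiles and median of all genes. Values run from 1.28 in Cdc42bpa to 4.07 in Hmox1, all above 0.

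The genes whose 9 values (3 regions in 3 libraries, log2 of reads per 1e+06 CDS reads plus 0.5, centred on each gene's mean) lay nearest to Fth1 were Tollip at a distance of 0.54, Cnn3 at 0.61 and Eif2s1 at 0.84, where the median over 10415 genes was 3.28. Rangap1 at 0.51 and Atp2b1 at 0.62 were among the 3 nearest to Tfrc, where the median was 4.80. Tollip had 46 5′ UTR and 2144 CDS reads in WT, 174 and 2598 in Chx, and 126 and 211 in Harr. Rangap1 had 379 and 8619, 853 and 11215, and 1017 and 2002 in the same order.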

How the data were processed

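The authors deposited 9 tables, 1 for each of 3 libraries and 3 regions, in the format of Plastid, with 1 line per exon segment of a transcript. The deposited counts are whole numbers of reads, not normalized. A coverage signal (reads divided by segment length) and RPKM were also deposited by the authors. Per the file headers, reads of 25 to 100 nucleotides aligned to mm10, without ribosomal reads or duplicates, were counted at the 5′ end with an offset of 0. The study's methods describe more than one alignment route, including TopHat with several alignments per read allowed for the search for open reading frames and Rsubread before counting with Plastid. Which made these tables is not given in the sources used here. Sample descriptions name input or pulldown fractions of dep neurons. Groups were taken from the titles and the recorded treatment.

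Only counts were used, and RPKM was recomputed from them. Of 142446 transcript identifiers, 99.1% matched GENCODE M21 with their version. The longest transcript with all 3 regions was taken per gene. Ratios are log2 odds ratios (5′ or 3′ UTR against CDS, at least 10 reads in each region, summed over the pair) or log2 ratios of CDS reads scaled to all CDS reads of the library (at least 100 CDS reads in the 3 libraries), with 0.5 added and counting standard errors. Shares carry Wilson intervals. A count of 0 was given a floor of 3 counts, or 0.0840 (Chx), 0.0993 (WT) and 0.308 (Harr) reads per 1e+06. Harr was sequenced least deeply, so its low counts are the least precise. Amplified reads need not be independent molecules. Stretches within a UTR come from subtracting nested segments of overlapping transcripts. Words of 25 nucleotides were looked up in all GENCODE transcripts. The odds ratio code was tested on simulated data. Python 3.11.15, pandas 2.3.3, numpy 2.4.6 and scipy 1.17.1 were used. Named genes are the 7 genes, other element mRNAs with at least 100 CDS reads, the 3 highest and 3 lowest of 24 iron genes, and the 3 genes nearest to Fth1 and to Tfrc. Alas2 and Cdc14a, with fewer reads, are named for their read counts. Nfs1, Cybrd1 and Fech are named for how they reached the minimum of reads. The genes and lists were chosen with earlier results of these data known. Alternatives were another pseudocount, minimum, transcript, scaling and set of 3′ UTR segments. The results of 1 gene that these rules name are not reported here.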

Additional observations from a re-analysis of the deposited data

Results flagged for a closer look

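A signal appeared outside the measured regions of Ftl1. A segment of 98 nucleotides in its first intron (chr7:45459324-45459421, −), annotated as an exon of ENSMUST00000210375.1, had 26 reads in WT, 35 in Chx and 87 in Harr, or 0.860, 0.980 and 8.92 RPM. The Harr level was above that of the untreated library. None of its 74 words of 25 nucleotides occurred in transcripts of another gene, unlike most of the Ftl1 CDS. It rests on 1 library per treatment.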

How the results depend on the processing

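Over 85 results, 228 values were recomputed under alternative settings. Of these, 210 stayed within the counting interval of the reported value or within 1.5 times the reported count, 17 moved outside it and 1 reversed, meaning that a value of at least 2-fold with an interval off 0 changed sign. Smaller values also changed sign. The reversal was the median gene with a 5′ UTR element minus Tfrc in Harr against WT, which was −0.18 instead of 1.07 when each gene was set against genes of like CDS length; that setting, the Fth1 transcript with the 5′ UTR in 1 exon and the omission of Ftl1 were chosen after seeing the data. Under the same setting the difference in Harr against Chx went from 0.97 to −0.07, inside its wide interval, and that in Chx against WT from 0.01 to −0.11. Scaling to all aligned reads moved the CDS ratio of Tfrc to −0.37 in Harr against Chx and to −0.25 in Harr against WT, from 0.18 and 0.26, while the median of all genes moved from −0.05 to −0.60 and from 0.00 to −0.51. Under that scaling the direction of the CDS ratio changed in Harr against Chx for Ireb2 and Aco1 too, and in Harr against WT for Slc40a1 (−0.34). The other values that moved were CDS ratios under that scaling, Fth1 densities with the other Fth1 transcript, and 2 Slc11a2 values with the transcript that has the most reads. No paired analysis was possible because there is 1 library per treatment. Depth limits Slc40a1 most, with 17 CDS reads in Harr, and most 3′ UTR counts.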
